A study of Mus musculus with 6 samples.

Results

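The lymphoid lineage genes examined here are 31 genes of early lymphoid priming and of B-cell and T-cell development, chosen by name from their known roles. A gene was represented by the brightest of the probe sets annotated to its symbol alone, and 28 of the 31 had such a probe set, out of 18193 genes measured in this way. Il2rg and Lck were not listed under any probe set of the annotation and were not analysed here. Vpreb2 was listed under 1 probe set only, which it shares with Vpreb1. The list was split by known role into 15 early-primed genes, of which 14 were measured, and 16 genes of the antigen receptors and their signalling, of which 14 were measured.

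The samples were LKS+ cells, the lineage-negative, c-Kit-high and Sca-1-positive fraction of mouse blood-forming cells that holds the stem cells and multipotent progenitors, with 3 replicates labelled as from Apcmin mice and 3 as from wild-type (WT) mice, each measured on 1 array. Apcmin mice have the Min mutation, a nonsense change in Apc, whose protein is a scaffold for the complex that degrades beta-catenin. The series offers them as a model for MPD/MDS (myeloproliferative and myelodysplastic disorders). The Min allele is carried in every tissue rather than in blood cells alone. No treatment was given, and age, sex and zygosity are not stated in the labels. No label names the animals, so the p-values measure the spread between these arrays.

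Multipotent progenitors in the LKS+ fraction begin to transcribe some lymphoid genes before they lose other fates, a state called lymphoid priming. Priming includes the recombination enzymes and cytokine receptors that a later lymphocyte needs. Commitment then depends on factors such as Ebf1 and Pax5 in B cells and Gata3 and Bcl11b in T cells, after which the chains of the antigen receptors are made. The pre-B receptor is an intermediate in which the surrogate light chain, built from Igll1 and a Vpreb protein, pairs with the mu heavy chain.

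Values are log2 of the intensity that the authors deposited, differences are Apcmin minus WT on that log2 scale, and the test is limma with Benjamini-Hochberg adjustment over 45037 probe sets. No member passed. Of the 28 measured members 0 had an adjusted p under 0.05, and the share over all genes was also 0.0%. At an unadjusted p under 0.05 there was 1 member, Cd3d, which was lower, against 1.89% of all genes lower and 1.22% higher. A difference of at least 1.5-fold was seen in 4 members that were lower (Ccr9, Vpreb1, Cd3d and Cd3e) against 1.91% of all genes, and in 0 that were higher against 2.08%. A mean log2 intensity of 6 over the 6 arrays is used below to separate bright from dim genes, because the table has no detection call and dim values can hold much background. Levels of different probe sets are not compared.

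The lymphoid program of these cells was read most clearly in 8 bright members: Dntt, Satb1, Bcl11a, Cd52, Rhoh, Ighm, Cd79b and Lax1. They had a median difference of -0.11, with 6 lower and 2 higher in Apcmin. The other 20 measured members were dim, and 14 of the 28 members lay below the median of all probe sets by mean. The only probe set of the list with a difference near 2-fold and no overlap of the groups was the one shared by Vpreb1 and Vpreb2.

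The start regions of the surrogate light chain genes are shown because that probe set reads both Vpreb genes, and because Igll1 is the next protein-coding gene to Vpreb1 on chromosome 16. The windows are RefSeq promoters of the build GRCm38.p6, which run from 250 bases before to 50 bases after the annotated start, on the strand of the gene. Capitals mark CAGGTG, an E-box of the kind bound by E proteins such as E2A, searched on both strands so that it can also read CACCTG.
Vpreb1, chr16:16869206-16869505, minus strand: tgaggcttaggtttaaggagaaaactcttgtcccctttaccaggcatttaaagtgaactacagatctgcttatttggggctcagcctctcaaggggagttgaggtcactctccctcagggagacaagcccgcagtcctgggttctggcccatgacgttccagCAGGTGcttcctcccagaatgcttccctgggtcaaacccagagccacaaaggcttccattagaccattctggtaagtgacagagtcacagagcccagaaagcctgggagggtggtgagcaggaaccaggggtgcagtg
Vpreb2, chr16:17980315-17980614, plus strand: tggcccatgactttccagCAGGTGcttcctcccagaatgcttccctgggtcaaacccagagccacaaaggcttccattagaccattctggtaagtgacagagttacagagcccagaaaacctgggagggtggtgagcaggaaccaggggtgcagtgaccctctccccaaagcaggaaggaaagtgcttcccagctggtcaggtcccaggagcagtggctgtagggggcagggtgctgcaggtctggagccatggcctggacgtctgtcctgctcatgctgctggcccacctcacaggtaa
Igll1, chr16:16863936-16864235, minus strand: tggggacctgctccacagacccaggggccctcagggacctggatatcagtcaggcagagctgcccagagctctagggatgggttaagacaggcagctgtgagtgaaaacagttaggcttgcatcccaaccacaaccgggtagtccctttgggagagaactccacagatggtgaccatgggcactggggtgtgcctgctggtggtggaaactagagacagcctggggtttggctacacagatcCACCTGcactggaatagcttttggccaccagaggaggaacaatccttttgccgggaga

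The last 156 bases of the Vpreb1 window line up with the first 156 bases of the Vpreb2 window without a gap, and 153 of them are identical (98.1%). The annotated starts of the pair therefore do not line up. That of Vpreb1 lies within the aligned stretch, and that of Vpreb2 lies beyond its end. The single CAGGTG of the Vpreb1 window and that of the Vpreb2 window lie in that stretch. The motif was present in 20.2% of the 32851 windows of the table, and in 14 of the 31 windows of the members, which belong to 12 of the 24 members that have a window. These matches describe letters in the windows and are not evidence of binding.

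The probe set shared by Vpreb1 and Vpreb2 was at 3.85, 4.15 and 3.83 in Apcmin, against 5.01, 4.77 and 5.0 in WT. Every Apcmin array lay below every WT array, and the spread within each genotype was small beside the gap. The difference was -0.98 with a standard error of 0.16 and a 95% confidence interval from -1.36 to -0.60, so WT was 1.97-fold higher. It had an unadjusted p of 0.000542 and ranked 8 among all probe sets, and it did not pass the limma test over the table (adjusted p = 0.954). When each array was left out in turn the difference stayed between -1.08 and -0.93. With values under 4 raised to 4 it was -0.87, and with 16 added to each intensity before the log it was -0.56. Its adjusted p in limma ran from 0.333 to 1.0 over those fits and over fits with a replicate block or a Y-linked covariate. The other alternatives were not read for this probe set. It was singled out after its values were seen, and it cannot tell Vpreb1 and Vpreb2 apart.

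Vpreb1 itself, read by a probe set of its own, was at 4.72, 6.20 and 5.08 in Apcmin and at 5.87, 6.10 and 6.14 in WT. Apcmin replicates 1 and 3 were low and Apcmin replicate 2 was the highest of all 6 arrays, so the groups overlapped. The difference was -0.71, with a 95% confidence interval from -1.59 to 0.17 (limma, adjusted p = 0.954). The shared probe set and the Vpreb1 probe set thus differed in how they placed Apcmin replicate 2.

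The other chains of the pre-B receptor gave smaller or less even values. Igll1, the lambda5 part of the surrogate light chain, averaged 4.30 ± 0.08 in Apcmin and 4.35 ± 0.22 in WT (SD, n = 3 each). Its other probe set disagreed in size, at 2.79, 2.25 and 3.13 in Apcmin and 4.78, 3.52 and 2.44 in WT. That difference was -0.86 with overlapping groups, and the mean over both Igll1 probe sets gave -0.46. Vpreb3, a Vpreb relative that binds newly made immunoglobulin chains, averaged 3.74 ± 0.05 in Apcmin and 4.12 ± 0.46 in WT. The WT spread of Vpreb3 came from WT replicate 3, which at 3.59 lay below all 3 Apcmin arrays, while the other WT values were 4.40 and 4.38.

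Ighm encodes the mu heavy chain, and progenitors can transcribe its locus before it is rearranged. Its brightest probe set was at 7.98, 8.31 and 8.43 in Apcmin and at 8.20, 8.41 and 8.95 in WT. The values of both genotypes were interleaved apart from WT replicate 3, which was the highest. The difference was -0.28 with a 95% confidence interval from -0.84 to 0.28 (limma, adjusted p = 0.954). The annotation lists 11 probe sets for Ighm alone, and all 11 had a lower mean in Apcmin, from -0.61 to -0.08. These probe sets read overlapping or similar immunoglobulin sequence on the same arrays and are not independent measurements. Only 2 of the 11 were bright, and among the 9 dim ones 2 had all Apcmin values below all WT values. Of the 9535 genes with a mean under 6, 565 did.

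**Figure D1:**
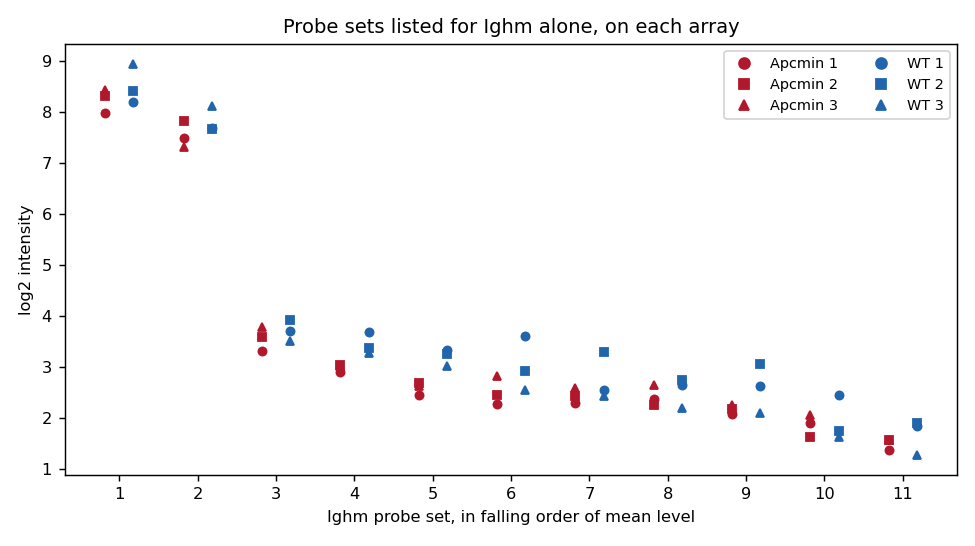
Log2 intensity (vertical axis) of the 11 probe sets listed for Ighm alone (horizontal axis, in falling order of mean level) on each Apcmin array (red, left) and WT array (blue, right), with 1 symbol per replicate. The 2 bright probe sets lie between 7.32 and 8.95 with overlapping genotypes, and the others lie under 4.

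Cd79a and Cd79b form the signalling pair of the B-cell receptor. Cd79b was bright, at 7.95, 8.16 and 7.66 in Apcmin and 8.01, 8.16 and 8.02 in WT, and its values overlapped with a difference of -0.14. Cd79a was dim, at 3.42, 3.20 and 3.24 in Apcmin and 4.08, 4.25 and 3.21 in WT. For Cd79a the WT arrays fell apart, with replicates 1 and 2 high and replicate 3 at the Apcmin level. The Cd79a difference was -0.56 with a 95% confidence interval from -1.23 to 0.12.

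The remaining B-cell genes were dim on every array. Blnk, the adaptor that links the B-cell receptor to calcium signalling, averaged 4.02 ± 0.03 in Apcmin and 4.29 ± 0.39 in WT. Blk, a Src-family kinase of B cells, averaged 2.13 ± 0.23 in Apcmin and 2.20 ± 0.40 in WT. Ms4a1, which encodes the CD20 surface protein, averaged 1.65 ± 0.20 in Apcmin and 2.02 ± 0.31 in WT. All 9 measured B-cell receptor and B-cell signalling members had a lower mean in Apcmin, and 7 of them lay under a mean of 6, where most genes were lower, as described below. Ighm and Cd79b did not lie in that range.

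Among T-cell genes, the CD3 chains transmit the signal of the T-cell receptor, and Cd3d, Cd3e and Cd3g lie side by side on chromosome 9. Cd3d was at 2.07, 2.54 and 2.94 in Apcmin and at 2.91, 3.41 and 3.39 in WT. Its groups overlapped by a small margin, since Apcmin replicate 3 lay above WT replicate 1. The difference was -0.72 with a standard error of 0.26 and an unadjusted p of 0.0296, and it did not pass (limma, adjusted p = 0.954). Cd3e averaged 2.40 ± 0.41 in Apcmin and 3.07 ± 0.65 in WT. Cd3g was nearly flat, at 2.01 ± 0.03 in Apcmin and 2.1 ± 0.29 in WT.

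Cd2, an adhesion receptor of T cells and natural killer cells, averaged 2.96 ± 0.65 in Apcmin and 3.27 ± 0.60 in WT. Lax1, an adaptor that dampens receptor signalling in T and B cells, was the only bright T-cell member. It was at 7.47, 7.94 and 7.28 in Apcmin and at 7.23, 7.51 and 7.52 in WT. Lax1 was higher in mean by 0.15, carried by Apcmin replicate 2, with a 95% confidence interval from -0.35 to 0.64.

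Among the early-primed genes, Dntt encodes terminal transferase, which adds bases at the joints of rearranging receptor genes and is an early sign of lymphoid priming. It was at 11.46, 11.32 and 10.92 in Apcmin and at 11.52, 11.24 and 11.15 in WT. The genotypes overlapped, and Apcmin replicate 3 was the lowest array. The difference was -0.07 with a 95% confidence interval from -0.54 to 0.40, and both other Dntt probe sets were also lower in Apcmin. Of the recombinase genes, which neighbour each other on chromosome 2, Rag1 averaged 3.02 ± 0.64 in Apcmin and 3.26 ± 0.26 in WT. Rag2 averaged 4.51 ± 0.34 in Apcmin and 4.44 ± 0.77 in WT, so neither showed a difference beyond its spread.

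Transcription factors of the early-primed class differed little. Satb1, a chromatin organiser that favours lymphoid output of stem cells in mice, was at 10.24, 10.22 and 9.76 in Apcmin and at 10.14, 9.82 and 10.31 in WT. Each genotype held 1 low Satb1 array, and the difference was -0.02 with a 95% confidence interval from -0.51 to 0.48. Bcl11a, which is needed for lymphoid progenitors in mice, was at 10.30, 10.17 and 10.20 in Apcmin and 10.15, 10.15 and 10.20 in WT. It was the steadiest member, with a difference of 0.06 and a 95% confidence interval from -0.25 to 0.37. Of its 6 other probe sets 5 were also higher in Apcmin, and the mean over all Bcl11a probe sets gave 0.15.

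The factors of B-cell and T-cell commitment were dim. Ebf1, which specifies B-cell fate, averaged 2.68 ± 0.33 in Apcmin and 2.93 ± 0.29 in WT, and just 1 of 4 further probe sets also gave a lower mean. Pax5, which fixes B-cell identity, averaged 2.81 ± 0.31 in Apcmin and 2.89 ± 0.21 in WT. Gata3, a factor of early T cells that stem cells also express, averaged 5.19 ± 0.11 in Apcmin and 5.27 ± 0.22 in WT. Bcl11b, which seals T-cell fate, averaged 3.30 ± 0.30 in Apcmin and 3.47 ± 0.18 in WT. Its other 3 probe sets were also lower, and 1 of them separated the groups, at 2.59, 2.71 and 2.1 in Apcmin and 2.83, 3.32 and 3.61 in WT, a difference of -0.79 with a 95% confidence interval from -1.4 to -0.17 that did not pass over all probe sets. On the brightest probe set of each of these 4 factors the 95% confidence interval of the difference includes 0.

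Rhoh and Cd52, which are surface or signalling genes of this class, were bright and lower in mean. Rhoh, a GTPase of blood cells that is needed for T-cell receptor signalling, was at 8.14, 8.51 and 8.13 in Apcmin and at 8.53, 8.55 and 8.58 in WT. The WT arrays were nearly equal and all above the Apcmin arrays, of which replicate 2 came closest. The difference was -0.29, with a 95% confidence interval from -0.67 to 0.09 (limma, adjusted p = 0.954). Both of its 2 other probe sets were dim and higher in Apcmin, and the mean over all Rhoh probe sets gave a difference of 0.09. Cd52, a surface glycoprotein abundant on lymphocytes, was at 9.69, 9.96 and 9.56 in Apcmin and at 9.96, 9.95 and 10.10 in WT. Its groups touched at Apcmin replicate 2, and the difference was -0.27 with a 95% confidence interval from -0.65 to 0.11.

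Ly6d, which marks B-biased lymphoid progenitors in mice, was dim and averaged 2.66 ± 0.28 in Apcmin and 3.16 ± 0.69 in WT, where replicate 2 alone reached 3.95. Il7r, the interleukin 7 receptor chain that lymphoid progenitors depend on, averaged 5.40 ± 0.64 in Apcmin and 5.65 ± 0.21 in WT. Apcmin replicate 3 was its low array, at 4.67, and the other Apcmin values were 5.70 and 5.83. Ccr9, a chemokine receptor for homing to the thymus, varied more than any other member. It ran from 1.83 to 5.01 in Apcmin and from 3.09 to 5.18 in WT, and 1 of its 4 other probe sets had the sign of its -0.78.

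**Figure D2:**
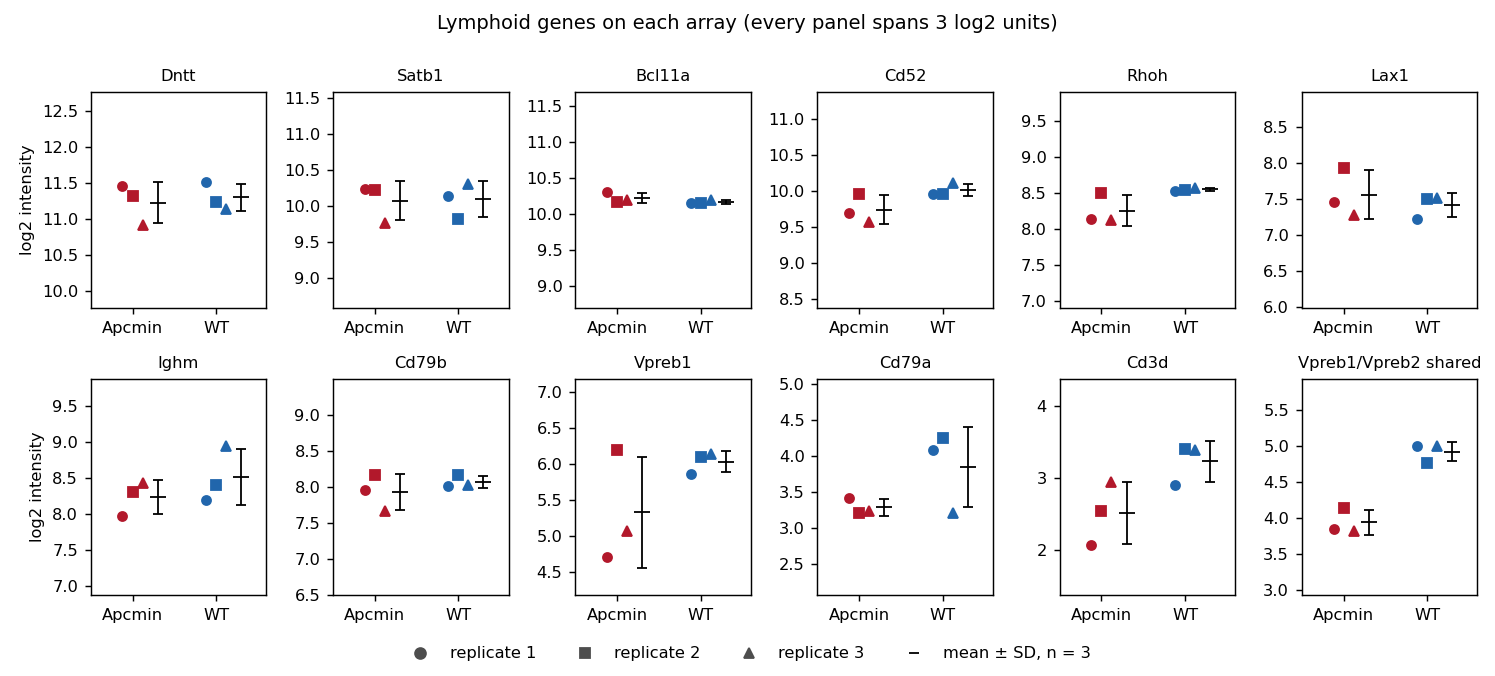
Log2 intensity (vertical axis) of 11 members and of the probe set shared by Vpreb1 and Vpreb2, in Apcmin (red, left) and WT (blue, right), with 1 symbol per replicate and the mean ± SD in black. The genotypes do not overlap for the shared probe set (Apcmin 3.83 to 4.15, WT 4.77 to 5.01) or for Rhoh, and they overlap in the other panels.

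As a list, 25 of the 28 members had a lower mean in Apcmin and 3 a higher one (Rag2, Bcl11a and Lax1), where 57.0% of all genes were lower and 43.0% higher. The median difference was -0.25 over the members and -0.04 over all genes. It was -0.21 for the early-primed class, with 12 of 14 lower, and -0.30 for the antigen receptor class, with 13 of 14 lower. The difference between the classes was not tested, and it depended on the split. With Ebf1, Pax5, Bcl11b and Ighm in the other class, the early-primed median was -0.24 over 12 members. The antigen receptor median was then -0.27 over 16. The medians also depended on single arrays and on the scale. The early-primed median was -0.07 when Apcmin replicate 3 was left out and -0.10 when Apcmin replicate 2 was. The antigen receptor median was -0.45 when WT replicate 3 was left out.

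**Figure D3:**
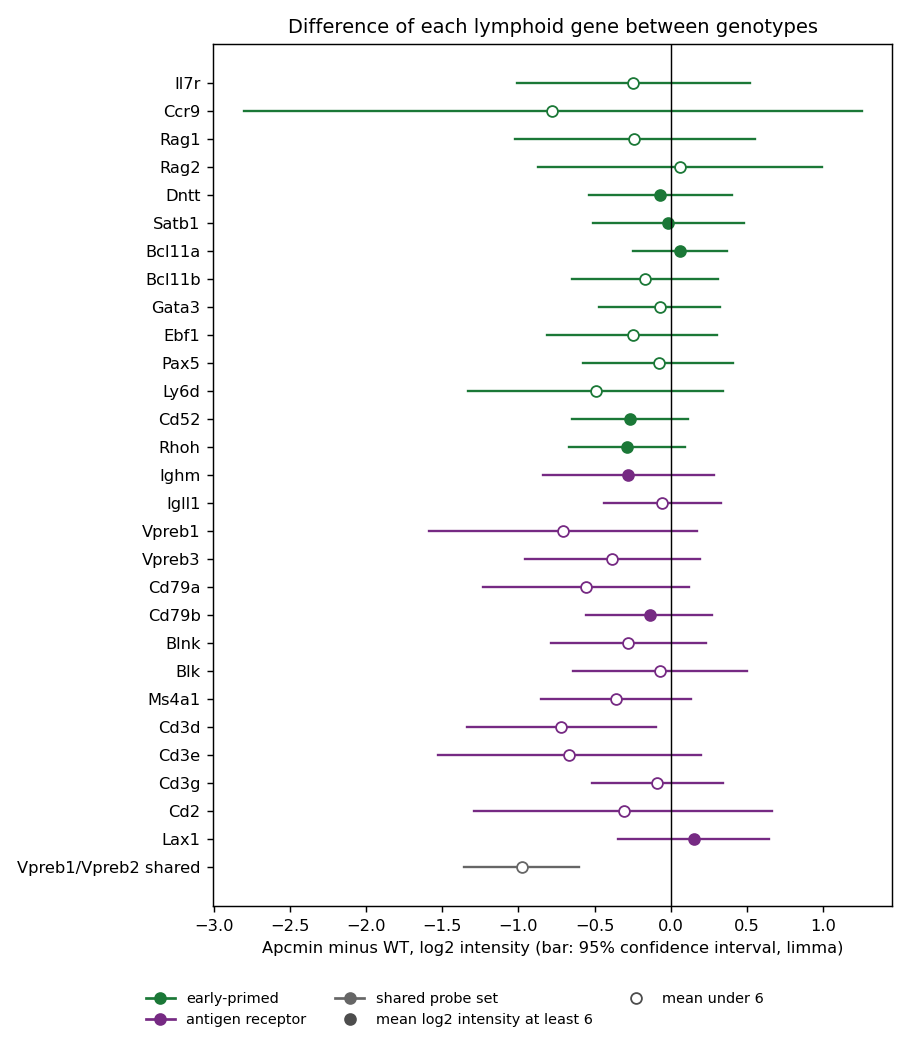
Apcmin minus WT difference in log2 intensity (horizontal axis) of the 28 measured members and of the probe set shared by Vpreb1 and Vpreb2, with the 95% confidence interval of limma as a bar. Members are coloured by class and filled where the mean is at least 6. The intervals of Cd3d and of the shared probe set do not reach 0, and neither passed over all probe sets.

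Intensity moved with these differences. The 20 members with a mean under 6 had a median of -0.27 and 19 were lower, while 69.1% of all genes in that range were lower, with a median of -0.12. The 14 members under 4 were all lower, with a median of -0.34, against -0.14 over all genes under 4, of which 74.5% were lower. Those 14 members lay between 1.8 and 4, where 76.8% of all genes were lower, with a median of -0.18. Among the 8 bright members 6 were lower, against 43.7% of bright genes, whose median was 0.02. The part that this shift of dim genes has in the members' values was not tested. With values under 4 raised to 4, the members' median was -0.03, against 0.0 over all genes. That floor sets most values of the 14 members under 4 to 4. Adding 16 to each intensity before the log gave -0.09, against -0.02 over all genes. A further quantile normalization gave -0.21, against -0.03. Over the genes under 6 the medians in these settings were 0.0, -0.03 and -0.06.

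**Figure D4:**
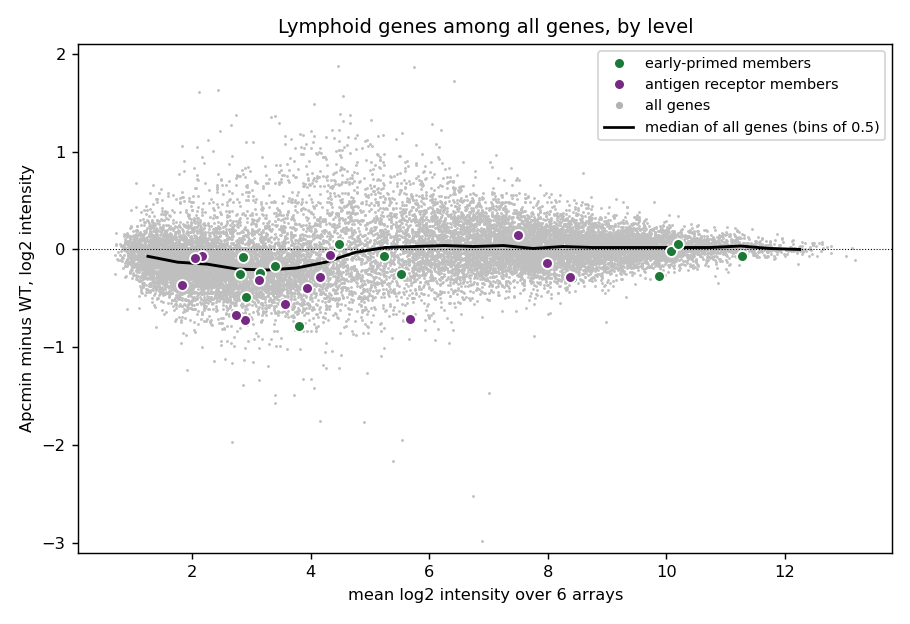
Apcmin minus WT difference in log2 intensity (vertical axis) against the mean log2 intensity over 6 arrays (horizontal axis) for all 18193 genes (grey), their median in bins of 0.5 (black line, bins of at least 20 genes) and the 28 members by class (green and purple). The black line lies below 0 at low levels, where most of the members also lie.

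The groups separated completely for 1 member. Rhoh was the only one with all Apcmin values below all WT values, where 4.76% of all genes met that description, and 0 members had all Apcmin values above, against 2.97% of all genes. The count rested on single arrays. It was 6 without WT replicate 3, where the share of all genes rose to 22.5%, and the 6 were Ebf1, Rhoh, Vpreb3, Cd79a, Ms4a1 and Cd3e. It was also 6 without Apcmin replicate 2, with 9.43% of all genes, and those were Rag1, Cd52, Rhoh, Vpreb1, Cd79b and Ms4a1. It was 3 without Apcmin replicate 3 (10.9% of all genes), 2 without WT replicate 1 (8.03%), 2 without WT replicate 2 (8.51%) and 1 without Apcmin replicate 1 (8.25%).

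Single arrays stood out in each class. Apcmin replicate 3 was the lowest array for 7 of the 14 early-primed members and for 5 of the 8 bright members, where it was the lowest for 14.0% of all bright genes. The early-primed members deviated from their own means by a median of -0.30 on that array, against -0.17 on Apcmin replicate 1 and 0.07 on Apcmin replicate 2. WT arrays 1 and 2 were the highest for 11 of the 14 antigen receptor members, with median deviations of 0.26 and 0.37. WT array 1 was the highest for 26.8% of all genes and 34.2% of those under 6, and WT array 2 for 22.3% and 28.7%. Over the antigen receptor members, WT replicate 3 was at -0.06. Over all genes with a mean under 6 the median deviations on WT arrays 1, 2 and 3 were 0.16, 0.13 and -0.13. On Apcmin arrays 1, 2 and 3 the antigen receptor members were at -0.18, -0.07 and -0.13.

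**Figure D5:**
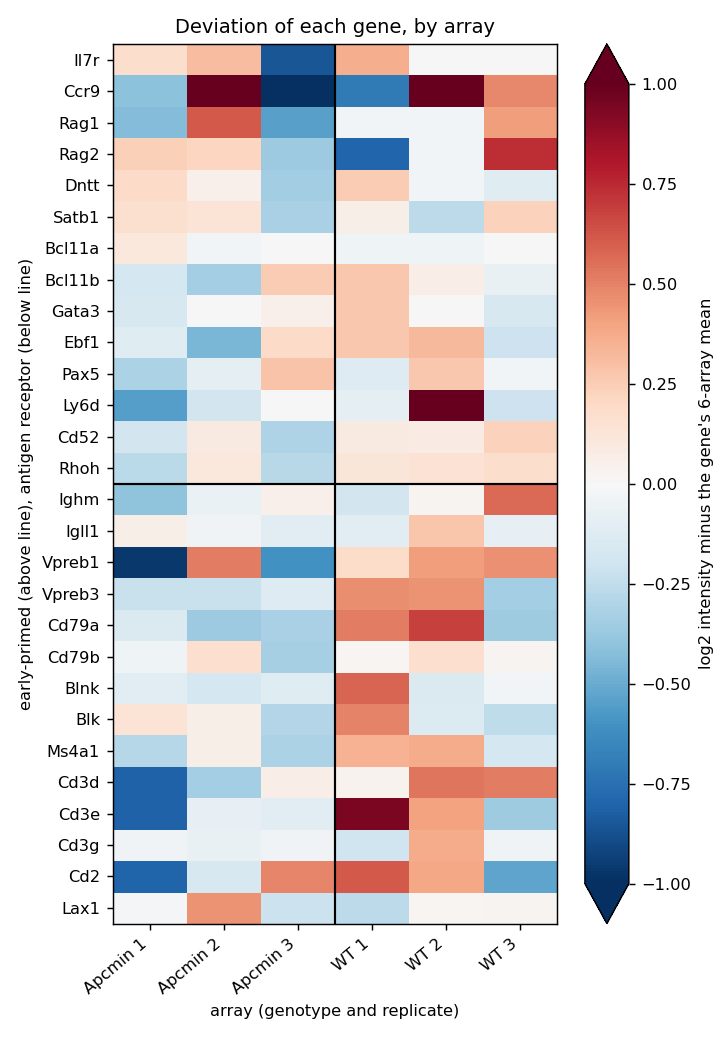
Deviation of each measured member from its own mean over the 6 arrays, in log2 intensity (colour), with members in rows and arrays in columns, Apcmin left of WT. Early-primed members are above the line and antigen receptor members below it. Apcmin replicate 3 is low for Il7r, Ccr9 and Dntt, and WT replicates 1 and 2 are high for Cd79a and Cd3e.

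Apcmin replicate 2 and WT replicate 3 carried signal of Y-linked genes, with means of 4.52 and 4.55 over all probe sets of Kdm5d, Eif2s3y and Uty, against 1.29 and 1.34 on the other Apcmin arrays and 1.43 and 1.53 on the other WT arrays. Xist, which is transcribed from the inactive X, was at 3.14 on that Apcmin array and 2.48 on that WT array, and between 10.63 and 10.74 on the others. Each genotype thus held 1 such array. Between these 2 arrays alone, 13 of the 28 members were lower in Apcmin, with a median of 0.04. Among the other 4 arrays, 24 of 28 were lower, with a median of -0.31. The early-primed class was at -0.05 and -0.22 in these comparisons and the antigen receptor class at 0.09 and -0.49. All genes with a mean under 6 were at 0.05 and -0.21, with 4027 and 6923 of 9535 lower in Apcmin. Over all genes, 8843 and 10481 of 18193 were lower. The comparison with Y-linked signal rests on 1 array a genotype and has no replicate, and whether the comparisons differ was not tested. The shared Vpreb1 and Vpreb2 probe set was lower in Apcmin in both, at 4.15 against 5.0 in the first.

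A wider list held other genes of lymphoid development. Of 48 listed, 44 were measured, 19 were lower and 25 higher in Apcmin, with a median of 0.05, and 0 passed an adjusted p of 0.05. At an unadjusted p under 0.05 in limma, where 1.89% of all genes were lower and 1.22% higher, 3 of the list were lower and 0 higher. Those were Zap70, a kinase of the T-cell receptor, at 3.0, 3.84 and 3.97 in Apcmin and 4.47, 4.47 and 5.43 in WT, Spib, an Ets factor of B cells and plasmacytoid dendritic cells (difference -1.02), and Cd6, a T-cell receptor of the scavenger family (-0.56). All 3 were dim. The highest-ranked in the other direction were Prkdc, the kinase that helps to join receptor gene ends, at 7.53, 7.49 and 7.40 in Apcmin and 6.44, 7.23 and 7.34 in WT, Pou2f2, a B-cell octamer factor (0.29), and Plcg2, a phospholipase of B-cell receptor signalling (0.27).

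Regulators that act upstream of lymphoid priming were bright and overlapped. Flt3, the receptor that marks lymphoid-primed multipotent progenitors, was at 10.03, 10.24 and 9.91 in Apcmin and 9.74, 9.99 and 10.31 in WT. Ikzf1, the Ikaros factor that primes lymphoid genes, was at 10.24, 9.98 and 10.06 in Apcmin and between 9.88 and 10.05 in WT. Notch1, the receptor that drives T-cell fate, was at 9.28, 9.51 and 8.75 in Apcmin and 9.29, 9.59 and 9.42 in WT. Apcmin replicate 3 was again the low Notch1 array.

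Markers of other cells that a sort could carry over were read beside the members. In bulk cells, fewer cells of a type and less RNA per cell cannot be told apart. Of 12 mature B-cell markers 10 were measured and 8 were lower in Apcmin, and their summed intensity on the linear scale ran from 1260 to 1580 in Apcmin and from 1210 to 1450 in WT. Of 12 mature T-cell markers all were measured, 7 were lower, all were dim, and the sums ran from 107 to 160 in Apcmin and from 110 to 138 in WT. Cd4 was at 4.42 to 5.16 in Apcmin and 4.5 to 4.7 in WT, and Cd8a at 3.39 to 3.60 in Apcmin and 3.41 to 3.95 in WT. These sums overlapped between genotypes. A sum on the linear scale is carried by its brightest genes. Most of the B-cell sum came from Cd37 and Cd72, at means of 9.5 and 8.48. The dim B-cell markers Cd22, Fcer2a, Cr2, Fcmr and Ciita were lower in mean in Apcmin, and the dim Bank1 was higher.

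Summed markers of natural killer cells and plasma cells were lower in Apcmin, those of plasma cells with overlap. Natural killer markers summed to between 1810 and 2100 in Apcmin and between 2330 and 2350 in WT, without overlap, over 8 measured of 9 listed, with 5 lower. That sum was carried by Nkg7, a granule protein of cytotoxic cells, at 10.66, 10.84 and 10.61 in Apcmin and 11.06, 11.03 and 11.05 in WT. Prf1, the only other bright marker of that list, was higher in mean in Apcmin by 0.07. The dim Gzma (0.55) and Klre1 (0.20) were also higher, so the lower sum reflects Nkg7 and not the list as a whole. Ncr1, which defines natural killer cells, was near the bottom of the range at 1.76 to 1.8 in Apcmin and 1.39 to 2.05 in WT. Plasma cell markers summed to between 921 and 1100 in Apcmin and between 1090 and 1300 in WT, over 7 of 8 listed, with 5 lower. Most of that sum came from Sdc1 and Xbp1, at means of 9.21 and 8.61. Jchain, which joins secreted immunoglobulin, was at 4.04, 4.09 and 5.57 in Apcmin and 7.54, 4.53 and 7.47 in WT. Its groups overlapped, and its difference was -1.95 (limma, adjusted p = 0.954). Mzb1 was dim, at 3.68, 3.36 and 3.1 in Apcmin and 3.94, 4.03 and 3.78 in WT. Among the 7 it alone had all Apcmin values below all WT values, as for 4.76% of all genes. Tnfrsf17 (0.18) and Derl3 (0.12), both dim, were higher in mean in Apcmin. Nkg7, Jchain and Mzb1 were singled out after their values were seen, and the part of such cells in the members' values was not tested.

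Plasmacytoid dendritic cell markers, which include the members Ccr9 and Ly6d, summed to between 1910 and 2350 in Apcmin and between 2030 and 2160 in WT, with 5 of 7 measured lower of 8 listed. Most of that sum came from Tcf4, at a mean of 10.62. Granulocyte markers, 10 of 12 measured and 7 lower, summed to between 7990 and 8620 in Apcmin and between 6920 and 10400 in WT, and S100a8 was at 11.30 to 11.37 in Apcmin and 11.26 to 11.49 in WT. Macrophage markers, all 9 measured and 5 lower, summed to between 123 and 136 in Apcmin and between 119 and 182 in WT, with Marco at 2.6 to 2.91 in Apcmin and 2.81 to 3.41 in WT. Erythroid markers, 7 of 10 measured and 3 lower, summed to between 1890 and 3240 in Apcmin and between 1890 and 3320 in WT. For 2 of the 7 all Apcmin values lay below all WT values, as for 4.76% of all genes. These 2 were singled out after their values were seen. Slc4a1, the anion exchanger of red cells, was at 3.34, 2.62 and 2.97 in Apcmin and 4.48, 4.81 and 4.1 in WT, a difference of -1.49 with an unadjusted p of 0.000748 (limma, adjusted p = 0.954). Hba-a1, an alpha globin, was at 1.79 to 1.98 in Apcmin and 2.02 to 2.56 in WT. Both were dim, and their part in the members' values was not tested. The 4 erythroid markers with a higher mean in Apcmin were Tfrc (0.19), Ermap (0.24), Klf1 (0.03) and Epb42 (0.15). All of the bright erythroid markers, Tfrc, Ermap and Klf1, were among them. Stem and progenitor markers, 13 of 14 measured, all had a mean of at least 6 in at least 1 genotype and summed to between 12100 and 12900 in Apcmin and between 11100 and 13300 in WT. Among them Kit was at 9.71 to 10.06 in Apcmin and 9.60 to 9.96 in WT, and Cd34 at 10.81 to 11.03 in Apcmin and 10.9 to 10.99 in WT. Apc was at 7.70 to 7.87 in Apcmin and 7.61 to 7.78 in WT, which does not check the genotype, since Min is a point mutation.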

How the data were processed

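LKS+ cells, at least 20000 per mouse at over 90% purity per the labels, were measured on 6 Affymetrix mouse genome arrays after linear amplification, 3 per genotype. The authors deposited normalized intensity values on a linear scale, 1 per probe set and array, and the submitters' processing notes name RMA, with settings not given in the sources used here. Log2 was taken with no pseudocount.

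Of 45101 probe sets 64 controls were left out. Apcmin and WT were compared with limma 3.58.1 in R 4.3.3 (lmFit and eBayes, genotype only), with Benjamini-Hochberg adjustment over 45037 probe sets at 0.05. The fit was also run on simulated data, with changes larger than any member's added to bright probe sets alone. That run does not show how small changes, or changes in dim genes, are recovered. Symbols came from the platform annotation of the arrays, and 34945 probe sets had exactly 1. Arrays of one genotype correlated at 0.975 to 0.987 and arrays of different genotypes at 0.974 to 0.989. These correlations therefore did not group the arrays by genotype. None of the arrays were identical, and precision is limited by having 3 per genotype.

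The members, the lists, the split into classes and the rule for named genes were chosen with earlier results of these data known. All members are named, and values per array are given for members with a mean of at least 6 in either genotype or whose groups did not overlap, and for the 2 with the smallest p in each direction. Of the other lymphoid genes the rule took the 3 with the smallest p in each direction with Flt3, Ikzf1, Notch1, Cd4 and Cd8a, and of the marker lists the sums and defining markers. Alternatives covered scale, filters, probe choice, weights, a replicate block, a Y-linked covariate, leaving out each array and the class of Ebf1, Pax5, Bcl11b and Ighm.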

Additional observations from a re-analysis of the deposited data

How the results depend on the processing

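In limma 0 of 45037 probe sets and 0 members passed an adjusted p of 0.05 with all arrays, and 0 did under each alternative fitted, including the replicate block and the Y-linked covariate. At an unadjusted p under 0.05 there was 1 member. The median difference of all members moved by more than its spread between arrays (SD 0.093) to -0.03 with values under 4 raised to 4. It moved to -0.09 with a pseudocount of 16. With a filter at a log2 mean of 6 the median was -0.11 over the 8 members left. With a filter at the median intensity it was -0.11 over 14. The filters left the differences of the remaining members unchanged, so these are medians over fewer, brighter members. The early-primed median was -0.03 with that floor and -0.07 with the pseudocount, and the antigen receptor median was -0.03 with the floor. Between the arrays with Y-linked signal the medians were 0.04 for all members, -0.05 for early-primed and 0.09 for antigen receptor members, and without it the antigen receptor median was -0.49. That comparison, and the one that adds the probe set shared by Vpreb1 and Vpreb2, were chosen after seeing the data. The causes were not tested.

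Leaving out each array gave medians from -0.29 to -0.17 for all members, from -0.19 to -0.07 for early-primed and from -0.45 to -0.22 for antigen receptor members. Members below WT without overlap numbered from 1 to 6 then, 2 after quantile normalization and 2 with the shared probe set, against 1 in the table as deposited. With replicate number as a replicate block the median stayed at -0.25 and the smallest adjusted p of a member was 0.998. Over all alternatives that smallest adjusted p ran from 0.333 to 1.0. The block changed no call, and the count without overlap has no value under the block or the Y-linked covariate. The deviations of arrays of the same number correlated at -0.047, -0.073 and -0.228. With 3 arrays a genotype these values cannot settle whether such arrays were handled together, and the sample titles give only a replicate number. The sign of a member's difference changed for up to 5 of 28 members, without WT replicate 1 or without Apcmin replicate 3. Dim signal over background limits the members under 6, which have no detection call.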
